A study of Mus musculus with 12 samples.

Results

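DNA repair genes were measured in Lgr5-GFP+ intestinal stem cells of mice with no, 1 or both Apc copies floxed. The set had 44 genes of 7 repair pathways, chosen by name, and each was read from the rows of the deposited tables that carried its symbol. Of the 44, 43 were found under their own symbol, among 14088 gene symbols used in all. Pms2, a mismatch repair gene, was present only in a row joined with the neighbouring gene Rsph10b and was not counted. Atm, the kinase that signals chromosome breaks, had a failed estimate in Apc_WT replicate 2 and was left out of the joint fit. The remaining 42 all passed the filter on low values, which asked that 4 or more of the 12 libraries reach 1 FPKM. FPKM relates the fragments of a gene to its transcript length and to all mapped fragments of the library.

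The cells came from the intestinal epithelium of C57BL/6 mice, and all 3 groups carried Lgr5-CreERT2-ires-eGFP, which places both the tamoxifen-dependent Cre recombinase and the green fluorescent protein under Lgr5, a crypt base stem cell gene. Apc_WT mice were Apc+/+, Apc_HET mice were ApcFlox/+ with a single floxed copy, and Apc_KO mice were ApcFlox/Flox, with 4 mice and 4 libraries in each group, and tamoxifen was given to every mouse, the wild types included, by 1 injection and then in the food for 5 days. Cells were sorted for GFP on day 15, so the controls share the Cre, the reporter and the drug. The study asked how the Apc mutation changes gene expression. The labels give no age, sex or sorting batch.

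Apc measured 8.89 ± 1.64 FPKM in Apc_WT, 11.0 ± 1.11 in Apc_HET and 13.8 ± 3.17 in Apc_KO (SD, n = 4), a value over all its exons that does not check recombination of the floxed allele. Lgr5 measured 23.9 ± 4.35, 26.4 ± 4.52 and 41.0 ± 16.8 FPKM. The summed stem cell marker genes, 11 of 12 found, ran from 5584 to 6426 FPKM in Apc_WT and from 5313 to 8463 in Apc_HET, while Apc_KO gave 863.5 to 1697, and the summed epithelial markers, 7 of 7 found, from 1875 to 2186, 1901 to 2233 and 1913 to 3173. These sums are carried by the most abundant markers. Of 11 stem cell markers tested, 6 were called higher and 2 lower in Apc_KO than in Apc_WT (median difference 0.54 in log2(FPKM + 1)), and of 6 epithelial markers 1 was called higher and 3 lower. Goblet cell markers summed to 1260 to 2002 FPKM in Apc_WT and 89.2 to 381 in Apc_KO, enterocyte markers to 1788 to 4554 and 238 to 412, and stroma and endothelium markers, 6 of 9 found, to 8.90 to 26.5 and 160 to 180. Leukocyte markers, 5 of 10 found, stayed at or under 9.28 FPKM in every library. In sorted bulk RNA, fewer cells of a type and less RNA per cell cannot be told apart. Total FPKM per library ran from 391710 to 518428, and the steps between low values put the depth of the other 11 libraries at 0.369 to 0.883 of that of Apc_WT replicate 1, with the absolute depth unknown. The part of these marker shifts in the results on repair genes was not tested.

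Cells mend DNA by separate routes. Mismatch repair removes copying errors, base excision repair removes single damaged bases, and nucleotide excision repair cuts out bulky adducts. Broken chromosomes are recognised by the Mre11-Rad50-Nbn complex and the kinases Atm and Atr, and are then joined directly by end joining or copied from the sister chromatid by homologous recombination, a route that needs S or G2 phase and overlaps with the Fanconi anaemia pathway for crosslinks. Crypt base stem cells divide continuously, and many homologous recombination, Fanconi and mismatch genes are transcribed in step with S phase, through E2F factors among others.

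Promoter windows from RefSeq on GRCm38.p6, 250 bases before to 50 after the start, were matched for 37 of the 44 genes. An E2F motif, TTTCCCGC or TTTGGCGC on either strand, stood in 7 of the 37 genes (18.9%) and in 486 of all 27025 genes with a window (1.8%). The surroundings of these 7 matches are shown because 5 of the genes are among those lower in Apc_KO than in Apc_HET below. They were thus picked with the calls known. Against Apc_WT only Chek2 of the 7 was called. With the median of cell cycle genes as a covariate, only Chek2 and Rad51c of the 7 were called against Apc_HET. A part of E2F in these differences was not tested. Each line reads 5′ to 3′ along the gene, with the motif or its reverse complement in capitals.
Msh3, chr13:92355187-92355216, minus strand: ttgccgtcaagTTTGGCGCgaaatcgcagc
Msh6, chr17:87975054-87975083, plus strand: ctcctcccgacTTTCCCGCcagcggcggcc
Brca2, chr5:150522442-150522471, plus strand: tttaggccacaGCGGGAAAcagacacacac
Bard1, chr1:71103163-71103192, minus strand: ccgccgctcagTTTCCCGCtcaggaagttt
Rad51c, chr11:87404941-87404970, minus strand: cccccgcgaggGCGGGAAAagcaaggggtc
Chek2, chr5:110839820-110839849, plus strand: cgggattagccGCGGGAAAccaagacgtcg
Xrcc6, chr15:82016312-82016341, plus strand: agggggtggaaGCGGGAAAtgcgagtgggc

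The 4 genes with the reverse complement, GCGGGAAA, were Brca2, Rad51c, Chek2 and Xrcc6. A CCAAT box, the letters bound by NF-Y, stood on either strand in 23 of the 37 (62.2%) against 41.1% of all genes with a window. The letters CTTTGAT or CTTTGAA, a form of the TCF/LEF motif that beta-catenin acts through, stood in 2 of the 37 (5.4%), Bard1 and Ercc1, against 9.9% of all genes. The cell cycle homology letters TTTGAA, which overlap with CTTTGAA, stood in Bard1 alone (2.7%, against 20.2% of all genes). These matches are descriptions of letters, and binding was not measured.

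Against Apc_WT, few of these genes differed in Apc_KO, and those that did were split between directions. Xrcc5, Ercc1, Xpc and Xrcc4 were higher in Apc_KO, and Chek2 and Xrcc3 were lower. Thus 6 of 42 were called, at an adjusted p under 0.05 in limma's test (14.3%), beside 45.5% of all 12968 genes tested, 4 higher (27.9% of all genes were higher) and 2 lower (17.7%). The median difference in log2(FPKM + 1) over the 42 was -0.03, with 18 above 0 and 24 below. Over all genes it was 0.12, with 7582 above 0 and 5386 below. With the libraries scaled by size factors the median over all genes was 0.03 and the calls among the 42 became 2 higher and 8 lower, and with quantile normalization the median was -0.02 and the calls again 2 higher and 8 lower. Over all genes the calls were 3614 higher and 2291 lower as deposited, 2984 and 2722 with size factors, and 2764 and 3044 with quantile normalization. With library weights the median over the 42 was 0.12, with 30 above 0, and 9 were called, beside 49.7% of all genes.

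By pathway, no gene of 4 in mismatch repair, of 5 in the Fanconi group or of 7 in base excision repair passed the test. Homologous recombination had 1 of 11, lower, and damage sensing 1 of 6, lower. End joining had 2 of 5 (40%) and nucleotide excision repair 2 of 4 (50%), all higher. Over all genes 45.5% were called, 27.9% higher and 17.7% lower. In each of these 2 pathways 1 call, Xrcc4 and Xpc, was lost with size factors and with quantile normalization. The median differences were 0.39 in nucleotide excision repair, 0.11 in base excision repair, -0.03 in mismatch repair, -0.04 in damage sensing, -0.08 in end joining, -0.17 in homologous recombination and -0.19 in the Fanconi group.

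**Figure D1:**
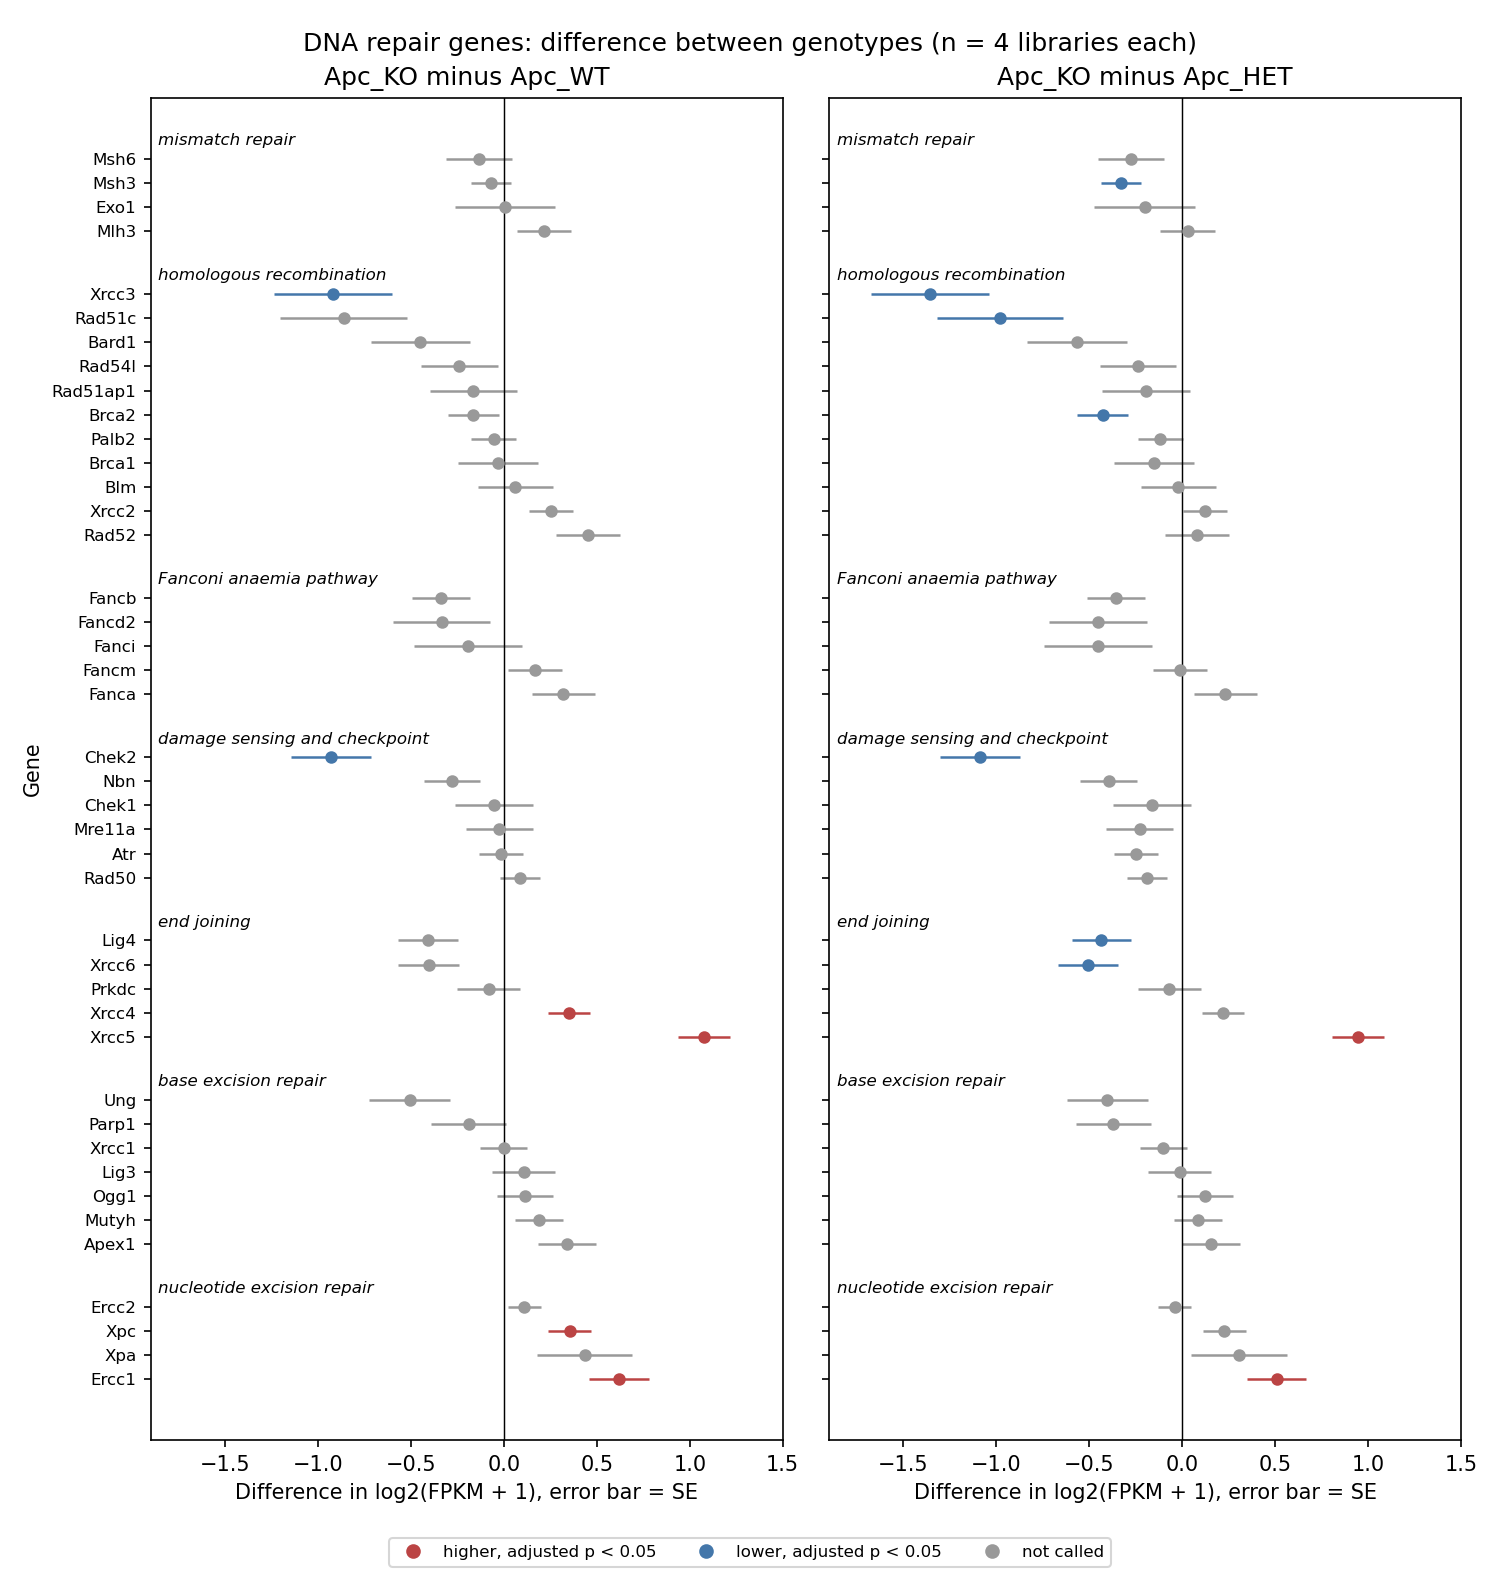
Difference in log2(FPKM + 1) of the 42 tested genes, grouped by pathway, for Apc_KO minus Apc_WT (left) and Apc_KO minus Apc_HET (right). Points are limma estimates from 4 libraries per genotype and bars are SE. Red and blue mark an adjusted p under 0.05. Xrcc5 lies farthest to the right in both panels, at 1.08 and 0.94, and Xrcc3 and Chek2 lie farthest to the left among the called genes.

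In end joining, Xrcc5 was higher in Apc_KO and its partner Xrcc6 was not. Together they encode Ku, the ring that grips broken ends, with Xrcc5 giving the larger and Xrcc6 the smaller subunit. Xrcc5 (GRCm38 chromosome 1, 72307421 to 72394952, plus strand) measured 13.5, 13.1, 13.4 and 11.7 FPKM in Apc_WT replicates 1 to 4, 13.4, 15.5, 14.3 and 14.0 in Apc_HET, and 27.7, 25.9, 22.9 and 39.4 in Apc_KO. The lowest Apc_KO library lay above the highest of the other 8. The difference from Apc_WT was 1.08 in log2(FPKM + 1) (SE 0.14, limma adjusted p = 5.65e-05), higher in 4 of 4 libraries, and it passed the test in 24 of 24 alternative analyses (other scalings, filters, loci and fits, and each library left out in turn), between 0.90 and 1.18.

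Xrcc6 (chromosome 15, 81987835 to 82040085, plus strand) measured 29.6, 30.1, 31.9 and 28.4 FPKM in Apc_WT, 30.5, 32.1, 33.2 and 33.2 in Apc_HET, and 14.3, 26.7, 24.2 and 26.9 in Apc_KO. All 4 Apc_KO libraries lay below the other 8, with replicate 1 far below the rest. The difference from Apc_WT, -0.41 (SE 0.16), did not pass the test (adjusted p = 0.0609), and it passed in 5 of 24 alternatives: with size factors, with quantile normalization, with library weights, and without Apc_KO replicate 2 or 4. The ratio of Xrcc5 to Xrcc6 FPKM was 0.432 ± 0.019 in Apc_WT and 0.443 ± 0.0268 in Apc_HET (SD, n = 4). In Apc_KO it was 1.93, 0.970, 0.948 and 1.46, so every Apc_KO library lay above every other library in this ratio, which does not depend on the scaling between libraries. The deposited locus of Xrcc6 spans 79.8% of its annotated exonic bases, and 344 exonic bases overlap Desi1 on the opposite strand. Whether counting used the strand is not given in the sources used here.

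The 250 bases before the starts of Xrcc5 and Xrcc6 are shown because these partners had differences of opposite sign. Capitals mark the searched motifs: a CCAAT box on the minus strand for Xrcc5 and the E2F match for Xrcc6. Xrcc6 also had a CCAAT box in its searched window, but not within the bases printed here. The RefSeq start used for Xrcc6 lies inside the GENCODE span of the gene given above, which includes a start farther upstream.
Xrcc5, chr1:72307171-72307420, plus strand: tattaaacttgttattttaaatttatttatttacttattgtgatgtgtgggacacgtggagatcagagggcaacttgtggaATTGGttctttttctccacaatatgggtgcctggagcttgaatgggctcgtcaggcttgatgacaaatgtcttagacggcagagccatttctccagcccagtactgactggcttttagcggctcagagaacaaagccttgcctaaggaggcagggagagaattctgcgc
Xrcc6, chr15:82016119-82016368, plus strand: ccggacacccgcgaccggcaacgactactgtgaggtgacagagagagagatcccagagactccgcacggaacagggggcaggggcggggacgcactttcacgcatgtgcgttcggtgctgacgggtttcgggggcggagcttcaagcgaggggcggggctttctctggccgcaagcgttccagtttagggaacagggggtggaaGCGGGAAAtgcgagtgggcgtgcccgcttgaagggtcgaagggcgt

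Their base composition differed, with 44.8% G and C in the Xrcc5 window and 65.2% in that of Xrcc6.

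The ligation step of end joining uses Xrcc4 as the scaffold of DNA ligase 4, encoded by Lig4. Xrcc4 measured 7.24, 6.62, 6.03 and 8.04 FPKM in Apc_WT, 6.41, 8.65, 8.04 and 7.82 in Apc_HET, and 9.04, 9.40, 8.45 and 9.62 in Apc_KO. The Apc_KO libraries lay above all Apc_WT libraries and overlapped Apc_HET. The difference from Apc_WT was 0.35 (SE 0.11, limma adjusted p = 0.0256), and the call was lost with size factors, with quantile normalization, with library weights, in a fit of the 2 genotypes alone, and without Apc_WT replicate 2, Apc_WT replicate 3 or Apc_KO replicate 2 (adjusted p up to 0.177 over the alternatives). Nearly all of the value came from a locus of 490 bases (chromosome 13, 89775539 to 89776028), which lies in an untranslated exon of an Xrcc4 transcript annotated as subject to nonsense-mediated decay, while the long Xrcc4 locus read between 0 and 1.11 FPKM. Lig4 measured 4.15, 4.75, 4.35 and 4.02 FPKM in Apc_WT and 2.98, 2.66, 3.59 and 2.84 in Apc_KO. These groups did not overlap, and the difference of -0.41 (SE 0.16) did not pass the test (adjusted p = 0.0548). Prkdc, the kinase recruited by Ku, differed by -0.08 (SE 0.17, adjusted p = 0.724).

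In damage sensing, Chek2, the effector kinase activated by Atm, was lower in Apc_KO. Chek2 (chromosome 5, 110839979 to 110874145, plus strand) measured 19.3, 17.4, 20.2 and 17.8 FPKM in Apc_WT, 20.1, 20.1, 20.0 and 23.8 in Apc_HET, and 5.58, 13.8, 12.7 and 7.50 in Apc_KO. The highest Apc_KO library lay below the lowest of the other 8, and replicates 1 and 4 lay lowest. The difference from Apc_WT was -0.93 (SE 0.22, limma adjusted p = 0.00385), lower in 4 of 4 libraries and called in 24 of 24 alternatives, between -1.10 and -0.58. Chek1, the effector of the Atr arm, differed by -0.06 (SE 0.21, adjusted p = 0.851), with 4.30, 9.73, 9.33 and 6.41 FPKM in Apc_KO against 5.56 to 9.05 in Apc_WT.

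Atm measured 6.35, 6.98 and 5.04 FPKM in replicates 1, 3 and 4 of Apc_WT, 6.27, 7.04, 7.52 and 7.52 in Apc_HET, and 4.38, 4.64, 6.61 and 2.13 in Apc_KO. Apc_KO replicate 4 was lowest, and Apc_KO overlapped both other groups. With the failed library treated as missing, Atm differed by -0.45 from Apc_WT (SE 0.25, adjusted p = 0.163) and by -0.64 from Apc_HET (SE 0.23, adjusted p = 0.0426). The sensor genes did not pass the test. Nbn differed by -0.28 (SE 0.15, adjusted p = 0.157), Mre11a by -0.03 (SE 0.18), Rad50 by 0.09 (SE 0.11) and Atr by -0.02 (SE 0.12).

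Homologous recombination had a single called gene, Xrcc3, which acts in strand exchange. Xrcc3 (chromosome 12, 111803192 to 111813873, minus strand) measured 30.7, 18.6, 31.8 and 37.7 FPKM in Apc_WT, 45.4, 28.9, 36.6 and 49.9 in Apc_HET, and 26.6, 18.7, 10.8 and 8.60 in Apc_KO. The deposited locus of Xrcc3 runs from 111758619 to 111813882 (55264 bases), beyond the annotated gene, and 12 exonic bases overlap Klc1 on the opposite strand. Apc_KO replicates 3 and 4 lay below all other libraries, while replicates 1 and 2 overlapped Apc_WT. The difference from Apc_WT was -0.92 (SE 0.32, limma adjusted p = 0.0329), and the call was lost in a fit of the 2 genotypes alone and when Apc_WT replicate 1, 3 or 4 was left out, or Apc_KO replicate 3 or 4 (adjusted p up to 0.0904).

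Rad51c, which partners Xrcc3 in the CX3 complex, measured 4.25, 4.59, 6.12 and 3.56 FPKM in Apc_WT, 5.82, 4.68, 5.45 and 4.28 in Apc_HET, and 0.408, 4.46, 3.38 and 1.59 in Apc_KO. Replicates 1 and 4 of Apc_KO were lowest and replicate 2 lay within the range of the others. Its difference from Apc_WT of -0.86 (SE 0.34) did not pass the test (adjusted p = 0.0564) but did in 6 of 23 alternatives, and the deposited locus spans 49.5% of the annotated exonic bases. The other genes of the pathway did not pass. The recombination mediator Brca2 differed by -0.17 (SE 0.14), its partner Palb2 by -0.06 (SE 0.12), Brca1 by -0.03 (SE 0.22) and the Brca1 partner Bard1 by -0.45 (SE 0.27, adjusted p = 0.194). The ratio of Bard1 to Brca1 FPKM was 0.803 ± 0.104 in Apc_WT, 0.802 ± 0.109 in Apc_HET and 0.559 ± 0.115 in Apc_KO (SD, n = 4), and the Apc_KO range of 0.450 to 0.695 overlapped the Apc_WT range of 0.662 to 0.903. The strand annealing gene Rad52 differed by 0.45 (SE 0.17, adjusted p = 0.0503) and the strand exchange gene Xrcc2 by 0.25 (SE 0.12, adjusted p = 0.0985). The helicase Blm, the motor Rad54l and the strand exchange cofactor Rad51ap1 differed by 0.06 (SE 0.20), -0.24 (SE 0.20) and -0.17 (SE 0.23).

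In nucleotide excision repair, all 4 genes had positive differences from Apc_WT as deposited, and 2 passed the test. Ercc1 (chromosome 7, 19344778 to 19356524, plus strand), a subunit of the nuclease that cuts beside the lesion, measured 7.75, 9.90, 8.21 and 9.59 FPKM in Apc_WT, 9.30, 10.4, 10.3 and 8.49 in Apc_HET, and 11.3, 13.7, 12.3 and 20.3 in Apc_KO. The lowest Apc_KO library lay above the other 8. Against Apc_WT the difference was 0.62 (SE 0.16, limma adjusted p = 0.00739), called in 24 of 24 alternatives, between 0.45 and 0.71.

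Xpc, which detects distorted DNA, measured 8.61, 7.15, 7.65 and 7.91 FPKM in Apc_WT, 7.87, 9.82, 8.48 and 8.45 in Apc_HET, and 12.2, 8.57, 9.92 and 10.7 in Apc_KO. Apc_KO replicate 2 lay just below the highest Apc_WT library and the other 3 lay above it. Against Apc_WT the difference was 0.35 (SE 0.12, limma adjusted p = 0.0254), and the call was lost with size factors, with quantile normalization, with library weights, in the fit of 2 genotypes, and without Apc_WT replicate 2, Apc_WT replicate 3 or Apc_KO replicate 1 (adjusted p up to 0.162). Xpa, the damage verification factor, measured 2.53, 2.48, 2.14 and 2.87 FPKM in Apc_WT, 2.56, 2.98, 3.25 and 2.55 in Apc_HET, and 4.18, 2.50, 2.20 and 7.62 in Apc_KO. Replicates 1 and 4 were high and replicates 2 and 3 lay within the wild type range, and the difference of 0.43 (SE 0.26) did not pass (adjusted p = 0.19). Ercc2, the TFIIH helicase and the gene of highest mean level here, measured 16.1, 15.2, 16.2 and 14.4 FPKM in Apc_WT, 18.4, 19.0, 16.4 and 15.5 in Apc_HET, and 16.7, 16.5, 17.4 and 16.4 in Apc_KO. Apc_KO lay above Apc_WT in every library and within Apc_HET, and the difference of 0.11 (SE 0.09) did not pass (adjusted p = 0.344).

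**Figure D2:**
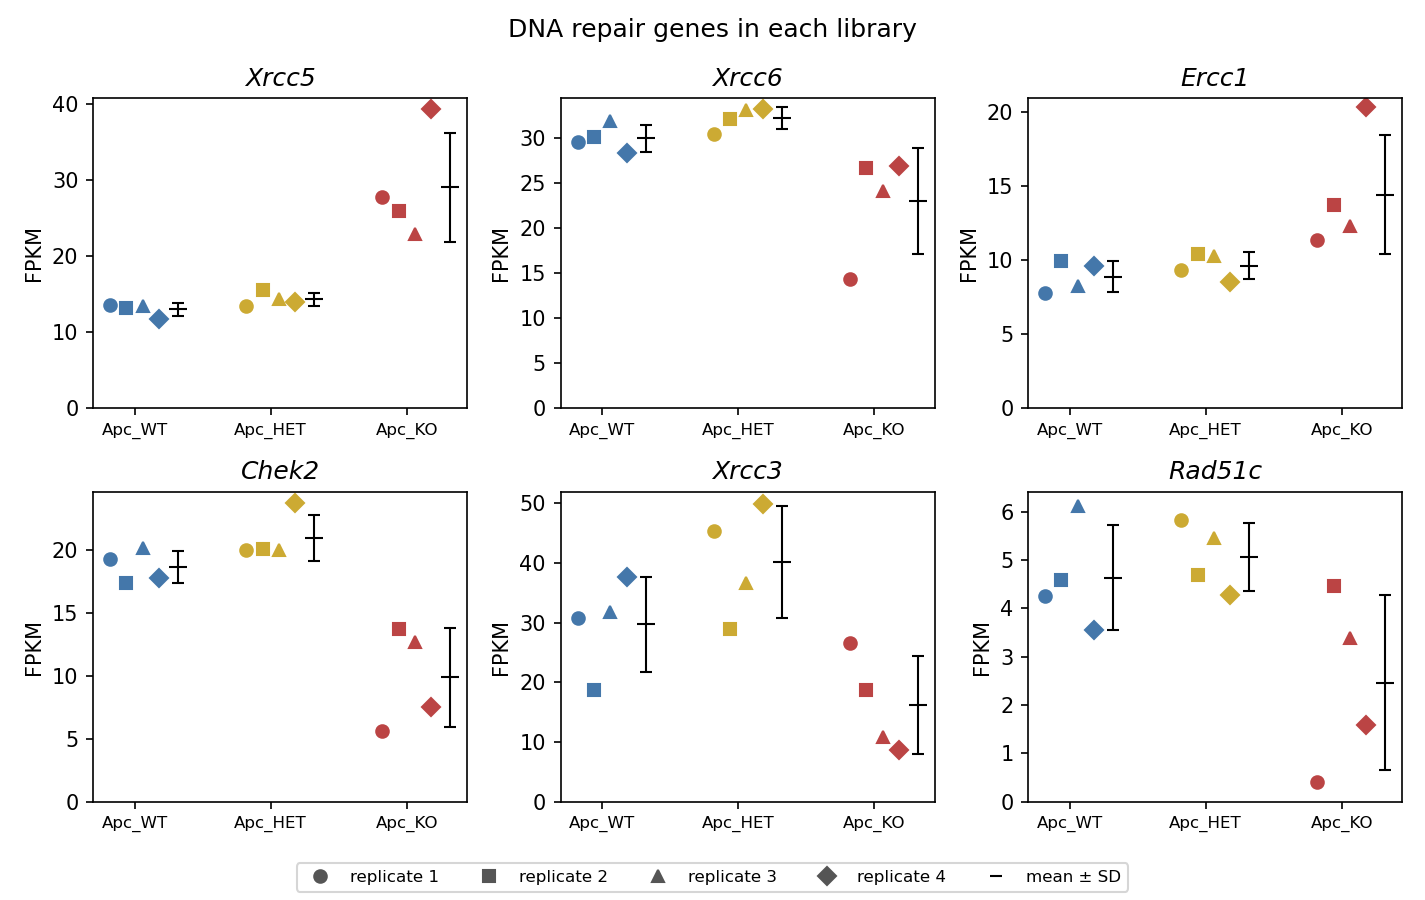
FPKM of 6 repair genes in each of the 12 libraries, with genotype on the horizontal axis, 1 symbol per replicate number and the mean ± SD (n = 4) in black. All Apc_KO libraries lie above the others for Xrcc5 and Ercc1 and below them for Xrcc6 and Chek2, while Xrcc3 and Rad51c overlap Apc_WT.

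In base excision repair no gene passed the test. Parp1, the strand break sensor and at 39.9 FPKM the highest mean of all 42 genes, measured 37.5, 37.6, 49.5 and 33.5 FPKM in Apc_WT, 45.0, 46.4, 43.8 and 42.7 in Apc_HET, and 23.8, 44.8, 46.7 and 27.2 in the 4 Apc_KO libraries. The outer values, from replicates 1 and 4, lay below all other libraries (difference from Apc_WT -0.19, SE 0.20, adjusted p = 0.477). Ung, the uracil glycosylase, measured 16.0, 19.1, 22.7 and 14.6 FPKM in Apc_WT, 18.2, 17.2, 14.0 and 16.9 in Apc_HET, and 7.58, 16.4, 16.3 and 11.0 in Apc_KO, again with replicates 1 and 4 lowest (difference -0.51, SE 0.22, adjusted p = 0.0749). The abasic site nuclease Apex1 differed by 0.34 (SE 0.16, adjusted p = 0.1), the oxidised base glycosylases Ogg1 and Mutyh by 0.11 (SE 0.15) and 0.19 (SE 0.13). The scaffold Xrcc1 and its ligase Lig3 differed by 0.00 (SE 0.13) and 0.11 (SE 0.17).

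Exons of Apex1, Lig3, Ercc1, Fanca and Fanci also overlap a coding gene on the opposite strand, by 106 bases (Ercc1) to 1826 (Lig3). In mismatch repair and the Fanconi group no gene passed either. The mismatch sensor Msh6 measured 25.4, 22.3, 28.4 and 19.2 FPKM in Apc_WT, 26.2, 26.9, 24.4 and 27.0 in Apc_HET, and 15.6, 25.2, 29.2 and 18.2 in Apc_KO. Apc_KO replicates 1 and 4 were the lowest of the 12 (difference from Apc_WT -0.14, SE 0.18, adjusted p = 0.569). Exo1, the nuclease that removes the mismatched strand, measured 6.16, 5.30, 7.18 and 4.17 FPKM in Apc_WT, 7.04, 6.61, 5.895 and 7.001 in Apc_HET, and 2.90, 8.41, 9.03 and 4.24 in Apc_KO. Apc_KO reached beyond both other groups on either side (difference from Apc_WT 0.00, SE 0.27, adjusted p = 0.992). Msh3 differed by -0.07 (SE 0.11) and Mlh3 by 0.22 (SE 0.15). Fanci, which forms the clamp of the Fanconi pathway with Fancd2, measured 4.15, 4.04, 5.32 and 2.95 FPKM in Apc_WT, 4.85, 4.81, 4.84 and 5.70 in Apc_HET, and 1.55, 5.12, 6.35 and 2.31 in Apc_KO, with replicates 1 and 4 below and replicate 3 above all other libraries. Fanca, of the Fanconi core complex, measured 10.3, 10.4, 14.1 and 8.04 FPKM in Apc_WT, 12.3, 11.5, 10.2 and 11.2 in Apc_HET, and 10.1, 15.6, 16.0 and 12.6 in Apc_KO, where replicates 2 and 3 lay above all other libraries. The differences were -0.19 for Fanci (SE 0.29), -0.34 for Fancd2 (SE 0.26), -0.34 for Fancb (SE 0.16, adjusted p = 0.099), 0.17 for the translocase Fancm (SE 0.15) and 0.32 for Fanca (SE 0.17, adjusted p = 0.148), the last 2 genes positive.

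The Apc_KO libraries differed among themselves more than the other genotypes did. The median range of the 42 genes on the log2 scale was 0.81 in Apc_KO, 0.37 in Apc_WT and 0.22 in Apc_HET, beside 0.72, 0.37 and 0.29 over all genes tested. The range was wider in Apc_KO than in Apc_WT for 35 of the 42 (83.3%, beside 79.6% of all genes). Replicates 1 and 4 were the 2 lowest Apc_KO libraries for 25 of the 42 (59.5%, beside 23.7% of all genes), including 9 of 11 in homologous recombination, 5 of 5 in the Fanconi group and 5 of 7 in base excision repair, and for 0 of 5 in end joining and 0 of 4 in nucleotide excision repair. They were the 2 highest for Rad52, Xrcc5, Xpa and Xpc. This split of the replicates was noticed in the values and has no test.

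Replicates 1 and 4 were also the 2 lowest Apc_KO libraries for 21 of 26 S phase genes and 19 of 20 mitosis genes. The median log2(FPKM + 1) of these 46 genes was 3.73, 4.97, 4.93 and 4.34 in Apc_KO replicates 1 to 4, 4.53 to 4.86 in Apc_WT and 4.76 to 4.94 in Apc_HET. The lists differed in replicate 4. Its S phase median was 4.58, within the Apc_WT range of 4.41 to 4.83, and its mitosis median was 4.10, below the Apc_WT range of 4.62 to 4.92. Replicate 1 lay below Apc_WT in both, at 3.83 and 3.73. The homologous recombination median was 2.52, 3.44, 3.44 and 2.65 in Apc_KO, 2.69 to 3.14 in Apc_WT and 3.10 to 3.21 in Apc_HET, and that of the Fanconi genes was 1.82, 2.61, 2.88 and 1.73 in Apc_KO against 1.98 to 2.66 in Apc_WT. The nucleotide excision median, over 4 genes, was 3.67, 3.57, 3.59 and 3.84 in Apc_KO, each above the highest of the other 8 libraries, 3.47. The median of all genes tested was 3.726, 3.765, 3.743 and 3.7 in Apc_KO, 3.605 to 3.636 in Apc_WT and 3.667 to 3.71 in Apc_HET. These medians are on the deposited scale, and the part of the scaling in them was not tested.

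With the proliferation median of each library as a covariate, the median difference of the 42 genes from Apc_WT was 0.07 and 9 passed the test. These were the 6 called without it, and Rad51c (lower), Apex1 and Fanca (both higher). Xrcc5, Chek2, Ercc1, Xrcc3, Xpc and Xrcc4 kept their call and their direction.

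**Figure D3:**
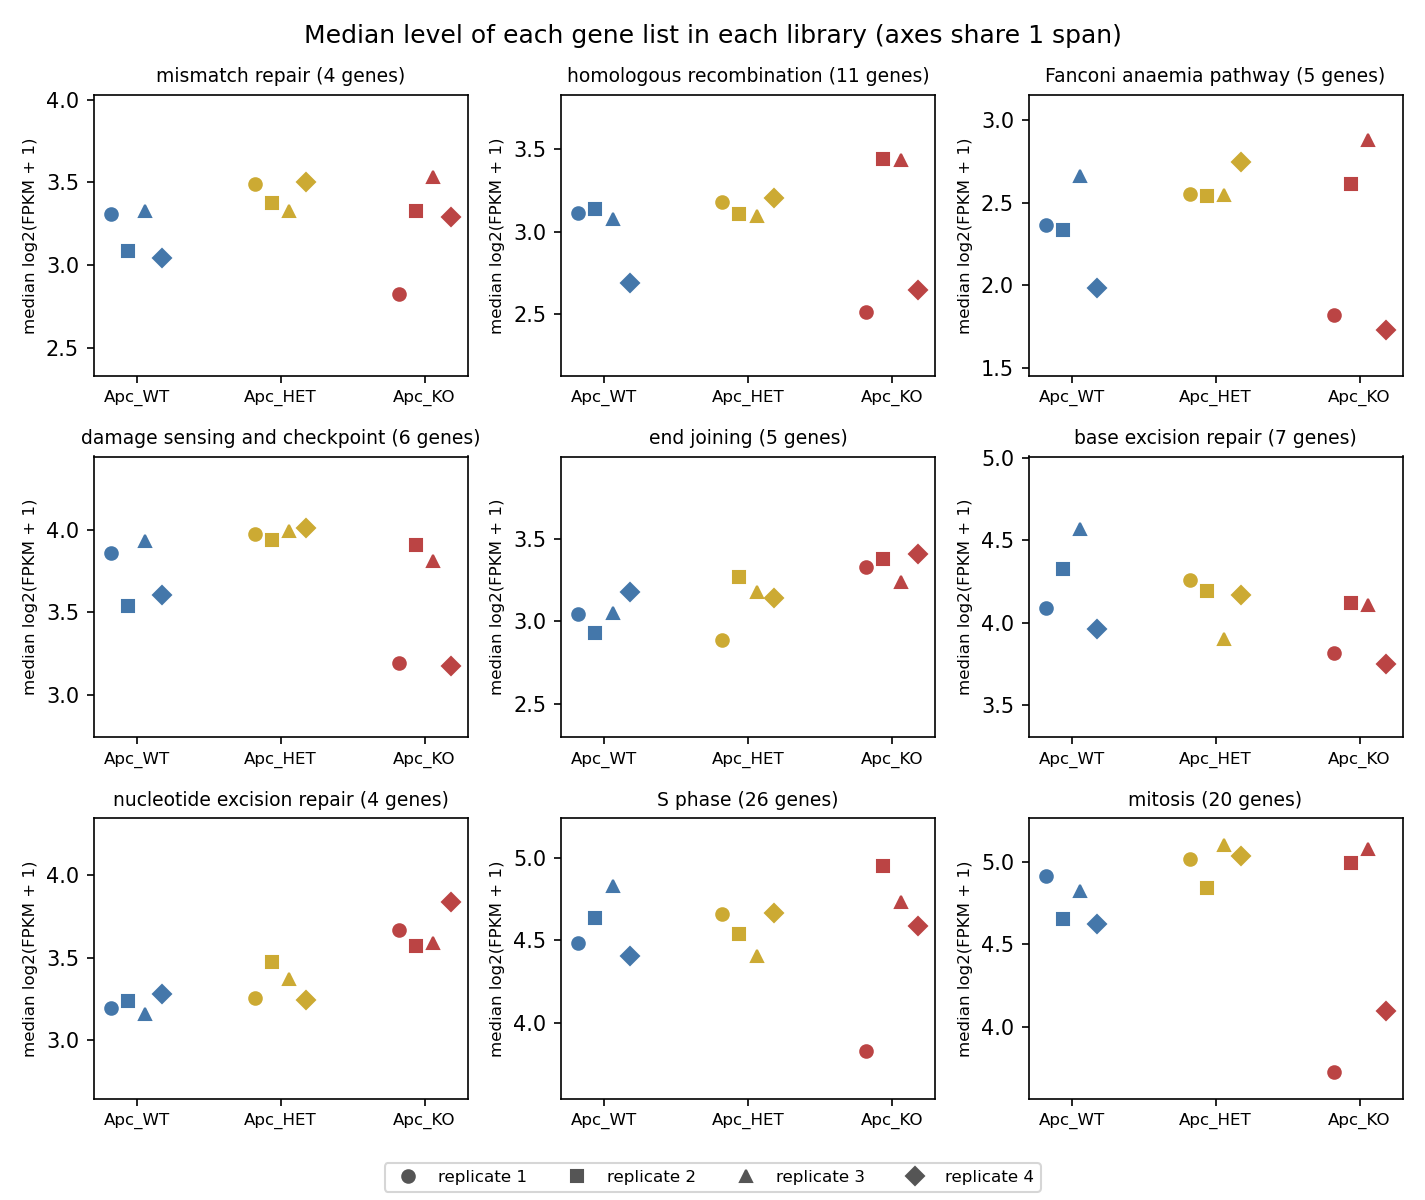
Median log2(FPKM + 1) of each repair pathway and of the S phase and mitosis lists in each library, with genotype on the horizontal axis and 1 symbol per replicate number. Panels have axes of equal span and different level. Apc_KO replicates 1 and 4 lie below replicates 2 and 3 in every panel but end joining and nucleotide excision repair. On the deposited scale, nucleotide excision repair lies higher in all 4 Apc_KO libraries.

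Loss of the second Apc copy was measured by Apc_KO against Apc_HET. Here 9 of the 42 genes passed limma's test (21.4%, beside 41.7% of all genes), 2 higher (22.8% of all genes were higher) and 7 lower (18.9%). Xrcc5 and Ercc1 were higher, and Chek2, Xrcc3, Rad51c, Brca2, Xrcc6, Lig4 and Msh3 were lower. The median difference was -0.18 beside 0.04 over all genes, with 30 of 42 below 0 beside 6112 of 12968. It was -0.36 in the Fanconi group, -0.24 in mismatch repair, -0.24 in damage sensing, -0.19 in homologous recombination, -0.07 in end joining, -0.01 in base excision repair and 0.27 in nucleotide excision repair. This comparison shares the Apc_KO libraries with the one against Apc_WT. With the proliferation covariate the median over the 42 was 0.00 and 6 passed, Xrcc5, Apex1 and Fanca higher and Chek2, Xrcc3 and Rad51c lower.

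Xrcc5 was higher by 0.94 (SE 0.14, limma adjusted p = 0.000178) and Ercc1 by 0.51 (SE 0.16, adjusted p = 0.0231), the latter not called in the fit of 2 genotypes, with the covariate, or without Apc_HET replicate 1 or 4. Chek2 was lower by 1.09 (log2 difference -1.09, SE 0.22, adjusted p = 0.00154) and Xrcc3 had a difference of -1.36 (SE 0.32, adjusted p = 0.00462), with all 4 Apc_KO libraries below all 4 Apc_HET libraries. Xrcc5, Chek2 and Xrcc3 were called in 24 of 24 alternatives. Rad51c differed by -0.98 (SE 0.34, adjusted p = 0.0363), and the call ended with a pseudocount of 0.1, with library weights, in the fit of 2 genotypes, and on leaving out any Apc_HET library, Apc_KO replicate 1 or Apc_KO replicate 4. Xrcc6 differed by -0.51 (SE 0.16, adjusted p = 0.0254), a call that ended in the fit of 2 genotypes, with the covariate, and without Apc_HET replicate 2, 3 or 4.

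Brca2 measured 3.50, 2.78, 4.36 and 2.78 FPKM in Apc_WT, 3.74, 4.05, 4.47 and 4.43 in Apc_HET, and 2.57, 2.92, 3.41 and 2.53 in Apc_KO. Apc_KO lay below all Apc_HET libraries and within or just under the wild type range. The difference from Apc_HET was -0.43 (SE 0.14, limma adjusted p = 0.0267), lost with library weights, with the covariate, and without Apc_HET replicate 2, 3 or 4 or Apc_KO replicate 1 or 4. Msh3, the sensor of larger loops, measured 12.7, 10.4, 11.3 and 12.2 FPKM in Apc_WT, 14.7, 13.1, 13.6 and 15.1 in Apc_HET, and 9.84, 9.72, 12.4 and 12.4 in Apc_KO. Here the heterozygous libraries were the highest 4 of the 12. The difference of Apc_KO from Apc_HET was -0.33 (SE 0.11, adjusted p = 0.0301), lost in the fit of 2 genotypes, with the covariate, and without Apc_HET replicate 1 or 4 or Apc_KO replicate 1 or 2. Lig4 measured 4.80, 4.20, 3.02 and 6.08 FPKM in Apc_HET, overlapping Apc_KO, and its difference of -0.43 (SE 0.16, adjusted p = 0.0455) was called in 2 of 12 analyses that left out 1 library.

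Loss of 1 Apc copy, Apc_HET against Apc_WT, gave no call among the 42 genes or among all genes tested (0% of 12968) by limma at an adjusted p under 0.05. At an unadjusted p under 0.05 there were 2 of 42 and 562 of 12968. The 2 were Rad50 (difference 0.28, SE 0.11, adjusted p = 0.987), at 14.1, 14.8, 15.2 and 15.6 FPKM in Apc_HET against 10.8 to 13.2 in Apc_WT, and Msh3 (0.26, SE 0.11, adjusted p = 0.987). For both genes the heterozygous libraries lay above all wild type libraries. The same held for Nbn and Apex1, at an unadjusted limma p of 0.46 and 0.265. The share of all genes separated in this way is not given here. Of the 42 differences, 38 were above 0, beside 8656 of 12968 over all genes, with a median of 0.12 beside 0.07. With size factors 35 were above 0 and the medians were 0.06 and 0.01, and with quantile normalization 33 were, with medians of 0.05 and 0.00. With the proliferation covariate 31 were above 0, with medians of 0.05 and 0.06. In the same comparison all 20 mitosis genes had differences above 0 (median 0.21, 0 called) and all 9 enterocyte markers had differences below 0 (median -1.08, 0 called), and the part of these in the repair genes was not tested beyond that covariate. The span of the 42 ran from -0.11 (Ung) to 0.44 (Xrcc3).

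A further 110 repair genes of the same pathways were read from the tables, and 95 were tested. Against Apc_WT, 19 were higher and 6 lower in Apc_KO (26.3% called, beside 45.5% of all genes), with a median of -0.01, and against Apc_HET 15 were higher and 9 lower (25.3%, beside 41.7% of all genes). None passed the test between Apc_HET and Apc_WT, with 3 at an unadjusted p under 0.05.

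A list of 10 genes of translesion synthesis, in which specialised polymerases copy past damaged bases, and of direct reversal of base damage had 3 called genes, all higher (30%, beside 27.9% of all genes called higher). Mad2l2, the Rev7 subunit of polymerase zeta that also takes part in end protection, measured 6.54, 8.75, 9.21 and 6.94 FPKM in Apc_WT, 7.37, 7.01, 8.50 and 5.60 in Apc_HET, and 28.3, 22.1, 18.1 and 39.2 in Apc_KO. Every Apc_KO library lay above the other 8, and the difference from Apc_WT was 1.61 (SE 0.21, limma adjusted p = 5.65e-05). Rev3l, the catalytic subunit of polymerase zeta, measured 13.1, 12.7, 11.0 and 9.85 FPKM in Apc_WT, 12.3, 12.5, 13.2 and 11.9 in Apc_HET, and 45.7, 21.7, 28.5 and 34.9 in Apc_KO, again without overlap (1.37, SE 0.18, adjusted p = 6.47e-05). Rev1, the scaffold polymerase of translesion synthesis, measured 7.04 ± 1.16 FPKM in Apc_WT, 9.34 ± 1.33 in Apc_HET and 13.8 ± 3.03 in Apc_KO (SD, n = 4), a difference of 0.87 (SE 0.16, adjusted p = 0.00101) with Apc_KO above all Apc_WT libraries. The other translesion polymerases Polh, Poli and Polk differed by 0.13, 0.15 and -0.13 (adjusted p = 0.613, 0.463 and 0.498), and Rad18, which ubiquitinates the sliding clamp, by 0.31 (adjusted p = 0.254). The direct reversal genes Mgmt, Alkbh2 and Alkbh3 differed by -0.18, -0.14 and -0.11, and none passed the test. Rev1 was named in addition to the rule, after its values were seen.

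**Figure D4:**
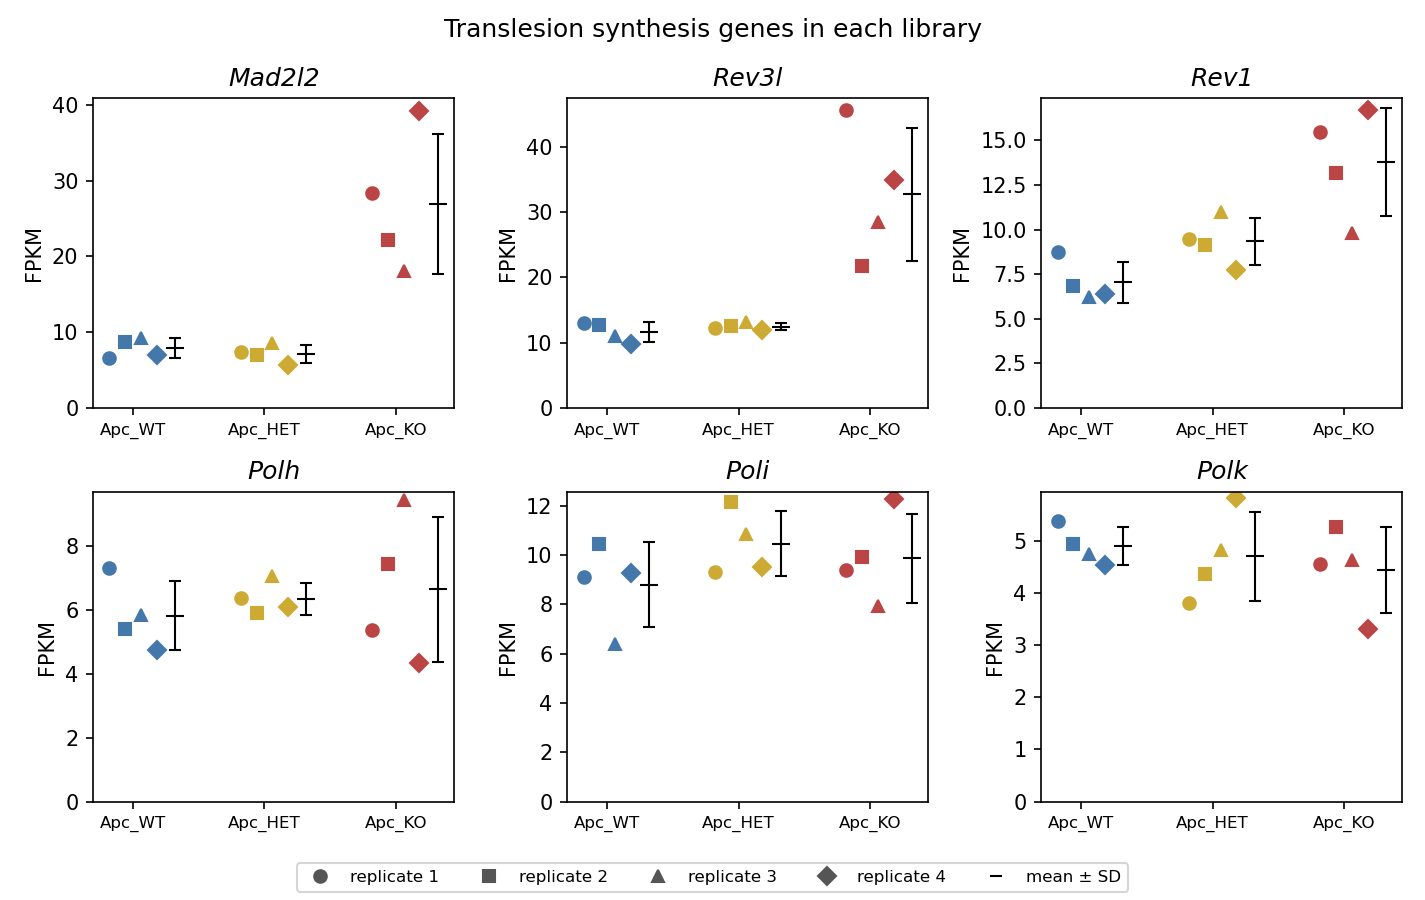
FPKM of 6 translesion synthesis genes in each library, with genotype on the horizontal axis, 1 symbol per replicate number and the mean ± SD (n = 4) in black. Mad2l2, Rev3l and Rev1 lie higher in all 4 Apc_KO libraries than in Apc_WT, and Polh, Poli and Polk overlap between genotypes.

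In the lists of other homologous recombination, base excision and mismatch repair genes the calls pointed both ways. Among 18 other homologous recombination genes 3 were higher and 2 lower (27.8% called, beside 45.5% of all genes). Rmi2, a partner of Blm, measured 0.626, 13.4, 8.41 and 1.68 FPKM in Apc_KO against 7.83 to 21.8 in Apc_WT, with replicates 1 and 4 lowest (-1.61, SE 0.59, limma adjusted p = 0.0415). Recql5, a helicase that restrains recombination, fell from 74.6 ± 12.9 to 30.6 ± 11.8 FPKM (SD, n = 4) with no overlap (-1.31, SE 0.23, adjusted p = 0.00054). Among 18 other base excision genes 7 were higher and 2 lower (50% called, beside 45.5% of all genes). Of these, Neil3, a glycosylase, fell from 18.7 ± 2.48 to 9.82 ± 2.41 FPKM (-0.88, SE 0.16, adjusted p = 0.000785). The alkyladenine glycosylase Mpg rose from 8.66 ± 0.444 to 15.6 ± 6.39 FPKM (0.71, SE 0.20, adjusted p = 0.0111). The groups did not overlap for either gene.

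Among 8 other mismatch repair genes, which act in replication as well, 1 was higher and 2 lower (37.5% called, beside 45.5% of all genes). The clamp loader subunit Rfc3 rose from 34.9 ± 2.22 to 64.2 ± 15.9 FPKM (0.83, SE 0.14, limma adjusted p = 0.000454). The polymerase delta subunit Pold1 fell from 37.3 ± 6.73 to 22.7 ± 10.2 FPKM (-0.79, SE 0.26, adjusted p = 0.0283). Apc_KO replicates 1 and 4, at 11.9 and 16.1 FPKM, were the lowest for Pold1. Of 12 other nucleotide excision genes 2 were higher and 0 lower (16.7% called, beside 45.5% of all genes), with a median difference of 0.06. The Xpc partner Cetn2 rose by 0.76 (SE 0.20, adjusted p = 0.00916), with Apc_KO replicate 1, at 15.6 FPKM, within the Apc_WT range of 15.3 to 16.7. The TFIIH subunit Gtf2h5 rose by 0.64 (SE 0.20, adjusted p = 0.0177). Of 15 other damage signalling genes 3 were higher and 0 lower (20%, beside 27.9% of all genes called higher). Trp53bp1, which favours end joining over resection, differed by 0.53 (SE 0.10, adjusted p = 0.000699). The checkpoint clamp subunit Rad9a differed by 0.45 (SE 0.14, adjusted p = 0.0227), with Apc_KO replicate 1 within the Apc_WT range. None of 9 other Fanconi genes and none of 5 other end joining genes passed the test against Apc_WT.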

How the data were processed

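RNA from 12 sorted samples, 4 mice for each of 3 genotypes, was read from random-primed cDNA. The authors deposited 1 table of FPKM values per library, per the file headers, made on mm10 (GRCm38) with Cufflinks, Cuffdiff, TopHat and Bowtie, per the submitters' processing notes. Tool versions, annotation, strandedness and scaling are not given in the sources used here. The tables hold 14499 symbols and 3548 rows that name no gene, which were left out. FPKM was summed over the loci of a symbol. Symbols whose loci differed between genotypes (295) or with a failed estimate (116) were left out, which gave 14088. Genes that reached 1 FPKM in 4 or more of the 12 libraries were tested, 12968 in all.

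Differences in log2(FPKM + 1) were estimated with limma 3.58.1 in R 4.3.3 (lmFit, contrasts.fit, eBayes with trend) in 1 fit of 12 libraries. Tests were two-sided, with Benjamini-Hochberg adjustment over all genes of a comparison and calls at an adjusted p under 0.05. The pseudocount of 1 understates changes of low genes. The steps were tested on simulated data. A library's depth was read from the commonest ratio of low FPKM values (under 0.3 and 0.5) to Apc_WT replicate 1, taken as 1 read in each, and less depth means more error in low genes. Gene positions are from GENCODE M21 on GRCm38.

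The genes and lists were chosen with earlier results of these data known. Genes given in full were those called in any comparison and, per pathway, those of highest mean and of widest range among Apc_KO libraries. From each list of other repair genes up to 2 called genes of largest difference from Apc_WT were named. The 3 genotype comparisons share libraries. Alternatives were 10 planned analyses and 12 fits without 1 library. Another 2, using only the longest locus of a symbol and treating the failed estimate of Atm as missing, were chosen after seeing the data.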

Additional observations from a re-analysis of the deposited data

Results flagged for a closer look

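Within each genotype, the highest and the lowest library of every tested repair gene was compared with the other 3, which made 126 groups of 4 libraries. In 3 of them a single library stood apart by more than Dixon's 95% limit, and chance gives about 1 in 20. Apc_HET replicate 4 stood high for Chek2, at 23.8 FPKM against 20.0 to 20.1 in the other 3 heterozygous libraries, and for Fanci, at 5.70 FPKM against 4.81 to 4.85. Apc_WT replicate 3 stood high for Prkdc, at 7.30 FPKM against 4.11 to 4.56, and 2.30 FPKM of that value came from a second locus of 343 bases next to the gene, which measured 0.429 to 0.898 FPKM in the other wild type libraries. Chek2 was called lower in Apc_KO without Apc_HET replicate 4 as well.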

How the results depend on the processing

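Xrcc5, Chek2 and Ercc1 kept their call against Apc_WT, and Xrcc5, Chek2 and Xrcc3 theirs against Apc_HET, in 24 of 24 alternatives, and no called value changed sign. Of the 42 genes, 4 were higher and 2 lower in Apc_KO than in Apc_WT. With size factors and with quantile normalization these became 2 higher and 8 lower, and a fit of the 2 genotypes alone gave 2 higher. With library weights 9 of 42 were called, beside 49.7% of all genes. The median difference was then 0.12 with 30 above 0, beside -0.03 and 18 as deposited. Without Apc_KO replicate 1 the median was 0.09 with 24 above 0. Leaving out 1 library gave 1 to 6 lower. Against Apc_HET, 2 were higher and 7 lower. The fit of 2 genotypes gave 1 higher and 3 lower, library weights 4 higher, a filter of 5 FPKM 4 lower and the proliferation covariate 3 lower, and leaving out 1 library gave 1 to 3 higher and 2 to 8 lower. Among the other repair genes, 6 were lower than in Apc_WT, with 10 under size factors, 17 under quantile normalization, 3 in the fit of 2 genotypes and 3 to 9 without 1 library. Against Apc_HET 9 were lower, with 5 under the filter of 5 FPKM, 5 in the fit of 2 genotypes and 5 to 11 without 1 library. The cause was not tested. Replicate numbers did not pair the libraries, with correlations of same-numbered deviations from -0.195 to 0.18 (not all above 0.1), and a replicate block gave 7 calls against Apc_WT, adding Rad51c, and 8 against Apc_HET, losing Lig4. The tables hold no counts, so no counting error could be attached to a value.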
